A study of Mus musculus with 12 samples.

Results

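The cytosolic ribosomal protein genes were compared between mice lacking H6pd (knockout, KO) and wild-type mice (WT) at 4 weeks of age, in 2 muscles, soleus and tibialis anterior (TA). Members were all genes whose symbol in the array's probe table is that of a numbered large (Rpl, Rplp) or small (Rps) subunit protein, without S6 kinases and pseudogenes. This gave 48 genes, 26 of the large and 22 of the small subunit, among 18193 genes with a probe set of their own. For each gene the probe set (the array's group of short probes) with the highest mean signal over the 12 arrays was used, and no measured difference entered the choice. A filter on dim signals kept 46 of the 48, among 13008 genes tested. All 26 large subunit genes were kept, and 20 of the 22 small subunit genes. Rps16 and Rps27 were left out, as the probe sets of their own had signals near log2 2.08 and 2.09, in the floor of the table. These values do not show that the genes are silent. Brighter probe sets that join Rps16 to further symbols are counted only in the group of such probe sets. The product of H6pd, hexose-6-phosphate dehydrogenase, makes NADPH in the lumen of the endoplasmic reticulum. Each muscle of each genotype was measured on 3 arrays, which the labels call biological replicates, so that there were 4 groups (KO soleus, KO TA, WT soleus and WT TA). Per the design text, mice of this age were weaned and their muscle looked free of myopathy on histology. The design text gives unlike fibre content and metabolism as the reason for taking these muscles. Neither the labels nor the design text say how the knockout was made, which strain and sex were used, or whether both muscles came from the same mice.

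A cytosolic ribosome joins a small subunit, which reads the mRNA, to a large subunit, which forms the peptide bonds, and each protein named here sits in one of them. Cells make the proteins of both subunits in matched amounts, and surplus protein is degraded. Their mRNAs typically begin with a terminal oligopyrimidine (TOP) tract, an unbroken run of C and T bases at the 5′ end, through which the kinase mTOR controls their translation. Skeletal muscle also uses Rpl3l, a muscle-enriched paralog of Rpl3, and several further paralogs of single subunit proteins exist.

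The start regions of 6 members are shown because the results below turn on them and because they differ in the tract. The sequences run from 15 bases before the annotated start to 14 bases after it, 5′ to 3′ on the gene's strand, in RefSeq's mouse annotation of build GRCm38.p6. Capitals mark the unbroken run of C and T that covers the start.
Rps10 (chr17:27635230-27635259, minus strand): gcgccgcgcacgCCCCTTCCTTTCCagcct
Rpl7a (chr2:26910792-26910821, plus strand): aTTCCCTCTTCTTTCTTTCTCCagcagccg
Rpl38 (chr11:114668565-114668594, plus strand): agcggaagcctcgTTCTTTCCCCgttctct
Rps7 (chr12:28635939-28635968, minus strand): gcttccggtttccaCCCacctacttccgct
Rps4x (chrX:102189377-102189406, minus strand): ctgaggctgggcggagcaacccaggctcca
Rpl3l (chr17:24727811-24727840, plus strand): gagtgttctagctctgtcatttgacctctg
The run is 13 bases long in Rps10, 21 in Rpl7a, 10 in Rpl38 and 3 in Rps7, and no pyrimidine covers the annotated start of Rps4x or Rpl3l. Part of a run can lie before the annotated start. From the start onward it has 10 bases in Rps10, 7 in Rpl7a, 8 in Rpl38 and 2 in Rps7. RefSeq start regions were matched for 42 of the 48 members. A run of at least 8 pyrimidines over the start was found in 12 of these 42 genes (28.6%), against 1240 of 27025 genes in the whole table (4.59%). It was present in 6 of 24 large subunit genes and in 6 of 18 small subunit genes. The search used only the strand of the gene, and counted any mix of C and T and bases on both sides of the start. An annotated start can lie some bases from the one a tissue uses, so the lack of a run says only that these letters are absent at that base.

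Muscle set the largest share of the variation among the arrays. The slow fibre marker list checked the labels, as all 10 of its genes were higher in WT soleus than in WT TA and passed the test, with a median log2 difference of 7.29. The H6pd signal did not separate the genotypes in these arrays. In soleus it was 4.90 ± 1.04 in KO and 6.27 ± 0.78 in WT (mean log2 ± SD, n = 3), and in TA 6.96 ± 0.50 and 6.85 ± 0.93. Neither difference passed the test (limma adjusted p = 0.577 and 0.966), and no source says whether the probe set lies within the deleted part. The directions below rest on the labels. Arrays numbered 3 stood apart in every group. On them the 3′ probe set of Actb, a control of RNA quality, exceeded the 5′ one by 0.91 to 1.01 log2, against 0.58 to 0.80 on the others. The KO arrays (0.66 to 0.99) and the WT arrays (0.58 to 1.01) overlapped in this measure.

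In soleus the ribosomal protein genes lay slightly above WT in the KO as a group. Of the 46 genes tested, 43 had a higher mean in KO (93.5%), against 51.1% of all genes. The median log2 difference of KO minus WT was 0.22, or 1.17-fold, where the median of all 13008 genes was 0.00. The other 498 genes of similar brightness (mean log2 above 12) had a median of -0.06. No single member passed the test in limma after Benjamini-Hochberg adjustment over all genes. At an unadjusted p under 0.05 there were 22 of 46 members, against 8.76% of all genes. The background was low here, as 4 of 13008 genes (0.0308%) were called in either direction, and 3 of them (0.0231%) were higher in KO. All KO arrays were above all WT arrays for 27 members, against 5.88% of all genes. A fit that weights arrays by their quality called 5 members (Rpl4, Rpl14, Rpl37, Rps7 and Rps26), all higher in KO, and in that fit 360 of all genes (2.77%) were called.

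In TA the shift was of like size, and 2 small subunit genes rose. Of the 46 genes, 38 had a higher mean in KO (82.6%), against 48.6% of all genes. The median log2 difference was 0.20, or 1.15-fold, where all genes had a median of 0.00 and the other bright genes of -0.03. Rps7 rose by 0.37 (SE 0.08, limma adjusted p = 0.0402) and Rps4x by 0.38 (SE 0.09, limma adjusted p = 0.0491). Of all genes, 368 (2.83%) were called in either direction and 185 (1.42%) were higher in KO, so that 2 of 46 is a count little above this background. At an unadjusted p under 0.05 there were 21 members, against 17.1% of all genes. All KO arrays were above all WT arrays for 27 members, against 10.7% of all genes. Both calls sat near the threshold. Rps7 remained called in 1 of the fits that left out an array of TA, the one without WT TA array 3, and Rps4x in none. Without the arrays numbered 3, neither passed. With the replicate number as a block there were 6 calls, the added ones being Rpl4, Rpl7, Rpl7a and Rps10, and the background rose as well, to 911 of all genes (7%).

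The shift appeared array by array and not in the averages alone. When each gene was centred on its mean over the 12 arrays, the median of the 46 genes was 0.09, 0.10 and 0.12 on the KO soleus arrays and between -0.19 and -0.06 on the WT soleus arrays. In TA it was 0.08, 0.11 and 0.12 in KO and between -0.11 and -0.07 in WT. All 6 KO arrays were thus above 0 and all 6 WT arrays below it, and WT soleus array 3 was the lowest of the 12. With WT soleus array 3 left out, the soleus median fell to 0.15. The other bright genes went the opposite way, with medians of -0.08 to 0.01 on KO arrays and of 0.00 to 0.07 on WT arrays, and in each muscle all KO arrays were below all WT arrays. The table as deposited, with no further normalization, gave the same separation, with KO arrays from 0.07 to 0.14 and WT arrays from -0.18 to -0.05. In these whole-muscle samples, more RNA per cell and more cells rich in a transcript cannot be told apart.

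**Figure D1:**
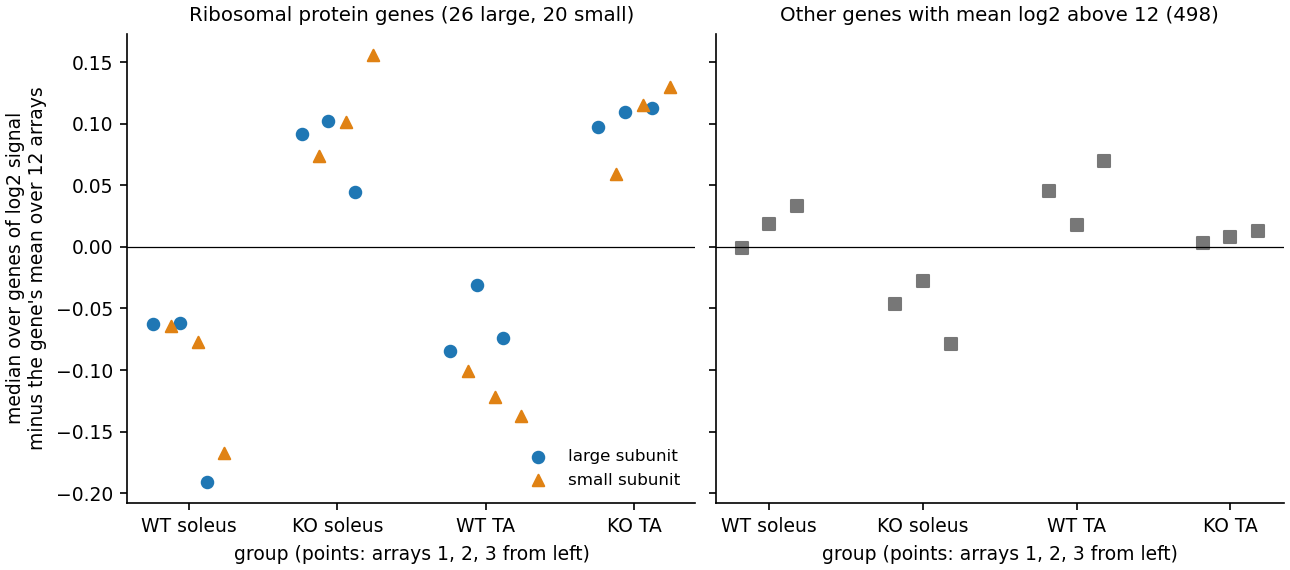
Left, the median over 26 large (circles) and 20 small (triangles) subunit genes of the log2 signal minus each gene's mean over 12 arrays, for each array of each group; right, the same for 498 other genes with a mean log2 above 12. Both subunits lie above 0 on the 6 KO arrays and below 0 on the 6 WT arrays, while the other bright genes are lower on the KO than on the WT arrays within each muscle.

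Most members were higher in both muscles. The 2 comparisons share no arrays, but whether the muscles came from the same mice is not known. KO exceeded WT in both muscles for 37 of 46 genes (80.4%), against 30.1% of all genes. With 43 and 38 of the 46 higher in each muscle, a large overlap follows from these counts alone. Across the 46 members the differences in the 2 muscles correlated at r = 0.67, against 0.51 over all genes. The value was 0.76 over large and 0.26 over small subunit genes, and 0.52 over members above log2 12. For 20 of the 46 every KO array was above every WT array in both muscles, a share of 43.5%, against 2.42% of all genes. Of these 20, 11 are of the large subunit (Rpl4, Rpl7, Rpl7a, Rpl13a, Rpl14, Rpl19, Rpl22, Rpl27, Rpl37, Rpl38 and Rpl41). The other 9 are of the small subunit (Rps4x, Rps7, Rps10, Rps14, Rps15, Rps19, Rps20, Rps24 and Rps26). Only Rpl3l and Rps2 had a lower mean in KO in both. The difference between the KO effects of TA and soleus had a median of -0.01 over the members, and limma called 0 of them, against 5 of all genes (0.0384%). At an unadjusted p under 0.05 there was 1 member, Rpl22l1, against 5.7% of all genes. The median standard error of this difference was 0.14 per gene, and even the -0.49 of Rpl22l1 did not pass (limma adjusted p = 0.817), so unequal responses of that size were not detectable for single genes at this number of arrays.

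**Figure D2:**
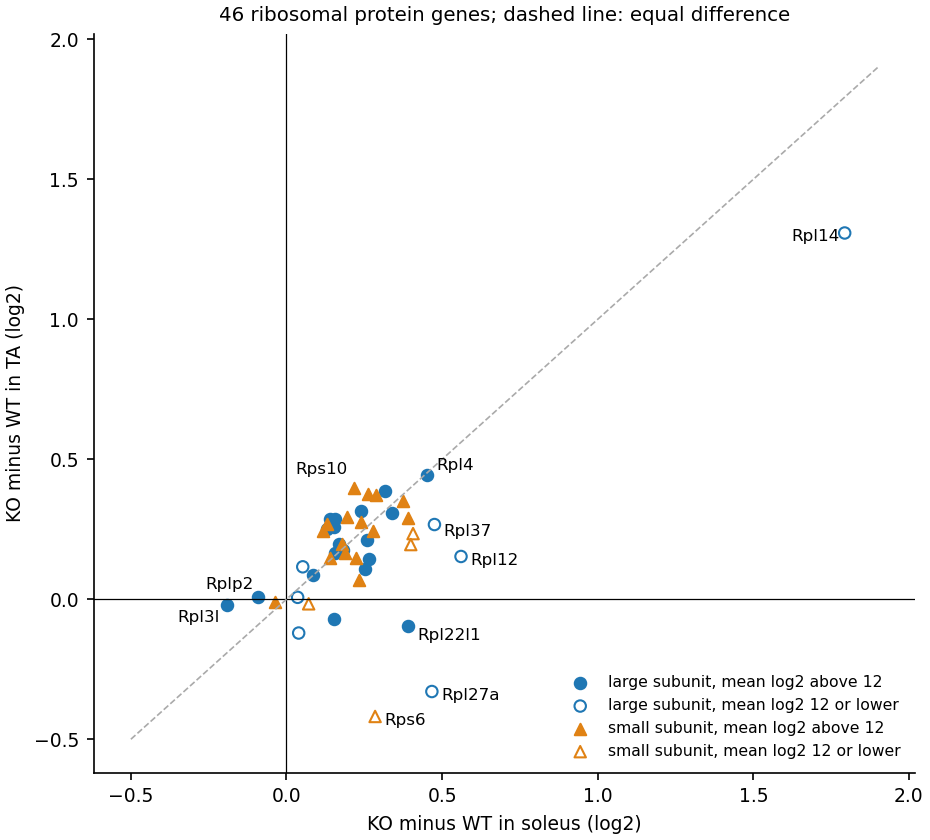
The log2 difference of KO minus WT in soleus (horizontal) and in TA (vertical) for each of the 46 genes, with large subunit genes as circles, small subunit genes as triangles and open symbols for genes with a mean log2 of 12 or lower. Of the 46, 37 lie above 0 on both axes, with Rpl14 far out at 1.79 and 1.31 and Rpl27a and Rps6 below 0 in TA.

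Large and small subunit genes were each higher in KO as groups. In soleus the median difference was 0.17 over 26 large and 0.23 over 20 small subunit genes, and 24 and 19 of them were higher in KO. In TA the medians were 0.17 and 0.24, and 21 and 17 genes were higher. The gap of large minus small was thus -0.05 in soleus and -0.07 in TA. On single arrays the large subunit median minus the small one averaged -0.03 ± 0.07 in KO soleus, 0.00 ± 0.02 in WT soleus, 0.01 ± 0.03 in KO TA and 0.06 ± 0.04 in WT TA (SD, n = 3). These values spanned -0.11 to 0.02 on KO soleus and -0.02 to 0.02 on WT soleus arrays, and -0.02 to 0.04 on KO TA and 0.02 to 0.09 on WT TA arrays, so the genotypes overlapped in each muscle. Without the arrays numbered 3 the soleus gap turned to 0.01 and the TA gap was -0.03. No test of the gap was run. Both called genes of TA, Rps7 and Rps4x, belong to the small subunit, and whether the subunits differ in their share of calls was not tested.

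Among the small subunit proteins, Rps7 is linked to the p53 pathway, since free RPS7 can bind MDM2. Its log2 signals were 14.41, 14.44 and 14.51 in KO soleus against 14.28, 14.11 and 14.10 in WT soleus, and 14.34, 14.48 and 14.34 in KO TA against 13.95, 13.98 and 14.11 in WT TA. The genotypes did not overlap in either muscle. The soleus difference was 0.29 (SE 0.08), short of the threshold with a limma adjusted p of 0.294. A second probe set of Rps7 gave 0.29 in soleus and 0.43 in TA. Rps4x is the X-linked form of the protein eS4. Its signals were 14.02, 13.89 and 14.03 in KO soleus against 13.73, 13.80 and 13.64 in WT, and 13.95, 13.95 and 14.03 in KO TA against 13.72, 13.64 and 13.45 in WT. Here too all KO values exceeded all WT values, with a soleus difference of 0.26 (SE 0.09, limma adjusted p = 0.359).

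Rps10 and Rps26 lie near the mRNA channel of the small subunit. Rps10 read 13.99, 13.99 and 13.84 in KO TA against 13.61, 13.64 and 13.38 in WT TA, the widest gap among bright small subunit genes there (0.40, SE 0.10, limma adjusted p = 0.0715). In soleus its difference was 0.22, and its 5 probe sets gave 0.10 to 0.34 in soleus and 0.15 to 0.43 in TA. Rps26, a protein mutated in Diamond-Blackfan anaemia, had the smallest unadjusted p of the members in soleus. Its signals were 13.07, 13.10 and 13.15 in KO soleus against 12.82, 12.74 and 12.60 in WT, a difference of 0.39 (SE 0.08, limma adjusted p = 0.174). In TA the KO values of 13.17, 13.25 and 13.23 were above the WT values of 12.86, 13.06 and 12.85, a difference of 0.29.

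Rps19, the first gene found mutated in Diamond-Blackfan anaemia, differed by 0.28 in soleus and 0.24 in TA, and Rps20 by 0.38 and 0.35. Rps24 differed by 0.24 and 0.28. Its 6 probe sets ranged from -0.17 to 0.46 in soleus and from -0.51 to 0.44 in TA. The lower end of both ranges came from 1 probe set near the floor of the table (mean log2 2.89). The other 5 were higher in KO in both muscles. Rps3, which lines the entry of the mRNA channel, differed by 0.14 and 0.15, and Rps14 by 0.19 and 0.16. Rps2 did not follow the others. It read 14.27, 14.28 and 14.17 in KO soleus and 14.27, 14.32 and 14.24 in WT soleus, a difference of -0.04 (SE 0.07), and its TA difference was -0.01. Rps6, the substrate of the S6 kinases, has 1 kept probe set of its own, which is dim and scattered widely, so it gives no firm direction. Brighter probe sets whose entry joins it to a second symbol are counted only in the group of such probe sets. Its KO values in TA were 6.01, 6.29 and 7.04 against 6.81, 6.49 and 7.29 in WT, a difference of -0.42 (SE 0.42), and in soleus it was 0.28 (SE 0.42).

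Among the large subunit proteins, Rpl4 reaches with a long loop into the peptide exit tunnel. Its signals were 14.98, 14.95 and 14.92 in KO soleus against 14.65, 14.59 and 14.25 in WT, and 14.84, 15.13 and 14.88 in KO TA against 14.47, 14.60 and 14.45 in WT. The genotypes were apart in both muscles, by 0.45 (SE 0.12, limma adjusted p = 0.259) in soleus and 0.44 (SE 0.12, limma adjusted p = 0.0751) in TA. Rpl38 read 14.38, 14.39 and 14.40 in KO soleus against 14.07, 14.11 and 13.98 in WT, and 14.23, 14.27 and 14.59 in KO TA against 14.01, 14.06 and 14.09 in WT. It differed by 0.34 and 0.31, with the KO TA array 3 well above the other arrays of its group. Rpl7a, whose run over the start is the longest of those shown but not the longest from the start onward, differed by 0.15 in soleus and 0.29 in TA (limma adjusted p = 0.0894). Rpl7 differed by 0.24 and 0.32, and Rpl13a, part of a translational repressor complex once released from the ribosome, by 0.26 and 0.21.

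Rpl14 had the highest difference of all members, on a dim probe set that is the only one listing it alone, so the size rests on that probe set. It read 5.91, 5.92 and 7.26 in KO soleus against 4.92, 4.46 and 4.33 in WT, and 6.06, 5.51 and 6.97 in KO TA against 4.73, 5.09 and 4.80 in WT. The KO arrays were above the WT arrays throughout, and array 3 was the highest in both KO groups. The differences of 1.79 (SE 0.42, limma adjusted p = 0.228) and 1.31 (SE 0.42, limma adjusted p = 0.14) did not pass the test. Rpl37 differed by 0.48 (SE 0.12, limma adjusted p = 0.228) in soleus and 0.27 in TA. Rpl11, which like Rps7 can bind MDM2, differed by 0.15 and 0.26 with an overlap in soleus. Rplp0 and Rplp2 belong to the stalk, which recruits elongation factors to the large subunit, and the third stalk protein has no probe set of its own among the members. Rplp0 differed by 0.08 (SE 0.06) and 0.09 (SE 0.06), and Rplp2 by -0.09 (SE 0.10) and 0.01 (SE 0.10), with overlapping genotypes in both.

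**Figure D3:**
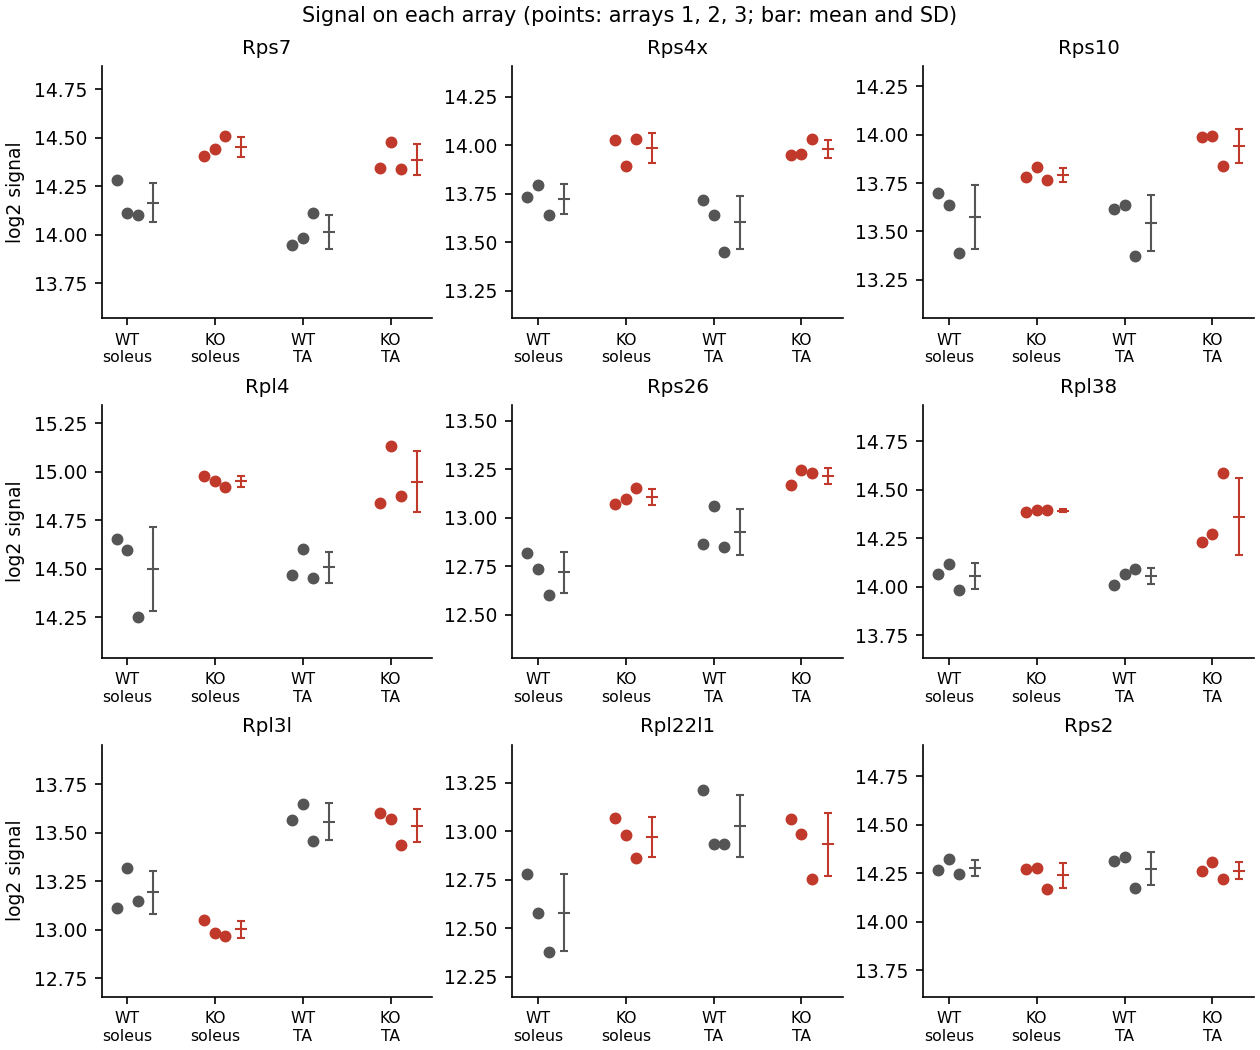
Log2 signal on each array (points for arrays 1, 2 and 3) with the group mean and SD beside them, WT in grey and KO in red, for 9 members; every panel spans the same log2 range. Rps7, Rps4x, Rps10, Rpl4, Rps26 and Rpl38 have all KO points above all WT points in both muscles, Rpl3l is lower in soleus than in TA, Rpl22l1 lies lowest in WT soleus, and Rps2 is level.

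The paralogs were read separately from the common subunit proteins. Rpl3l was the only member called between the muscles on its brightest probe set, as its signal was lower in soleus. It read 13.11, 13.32 and 13.15 in WT soleus against 13.57, 13.65 and 13.46 in WT TA, a soleus minus TA difference of -0.36 (SE 0.08, limma adjusted p = 0.0229). In the KO it read 13.05, 12.99 and 12.97 in soleus against 13.60, 13.57 and 13.44 in TA, a difference of -0.53 (SE 0.08, limma adjusted p = 0.00397). The muscles did not overlap in either genotype. The call in KO held in 19 of 19 alternatives and the call in WT in 12 of 19. Calls between the muscles were common among all genes, at 10.7% in WT and 8.94% in KO, and those lower in soleus made up 6.28% and 4.6%. The share of 1 member in 46 is below these. Over all 46 members the median soleus minus TA difference was -0.01 in WT and 0.00 in KO, with 19 and 24 of them higher in soleus. Single members went both ways. Every WT soleus array was below every WT TA array for 9 members, against 2807 of all 13008 genes. The reverse held for 1 member, against 1778 of all genes. With the replicate number as a block, 2 members were called in WT and 3 in KO, against 18.2% and 16.9% of all genes in those fits. Between genotypes Rpl3l went against the family in soleus, where all KO values were below all WT values (-0.19, SE 0.08, limma adjusted p = 0.555), and in TA it was level (-0.02, SE 0.08).

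Rpl22l1, a paralog of Rpl22 that can stand in for it, read 13.07, 12.98 and 12.86 in KO soleus against 12.78, 12.58 and 12.38 in WT soleus. In TA it read 13.06, 12.99 and 12.75 in KO against 13.21, 12.93 and 12.94 in WT. Its KO difference was 0.39 (SE 0.13, limma adjusted p = 0.364) in soleus and -0.09 (SE 0.13) in TA, and the difference of these effects was -0.49 (SE 0.18, limma adjusted p = 0.817). WT soleus was the low group, with a soleus minus TA difference of -0.45 in WT (SE 0.13, limma adjusted p = 0.0529). Rpl22 itself differed by 0.17 in soleus and 0.20 in TA on its brightest probe set. Its 3 probe sets ranged from 0.06 to 1.13 in soleus and from 0.20 to 1.32 in TA, and with their mean as the gene's value Rpl22 was called in TA (limma adjusted p = 0.0376). Rps27l, a paralog of Rps27 that p53 induces, differed by 0.07 and -0.02 between genotypes and had a soleus minus TA difference of -0.38 in WT (limma adjusted p = 0.0908). Its other probe sets gave -0.56 and -0.47, with limma adjusted p = 0.011 and 0.126 in a fit over all 27497 kept probe sets, which called 6.91% of them in this comparison. Rpl7l1, a homolog of Rpl7, differed by 0.04 and -0.12. Rpl39l and Rps4l, with mean signals of 2.88 and 3.94, lay near the floor of the table, and their differences carry little information.

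The remaining members can be given by range. Of the 46 genes, 35 had a mean log2 above 12, and their differences ran from -0.19 to 0.45 in soleus and from -0.09 to 0.44 in TA, with medians of 0.19 and 0.24. A further 7 lay between log2 5 and 12, with 7 higher in soleus and 3 in TA. The 4 members below log2 5 were Rpl12, Rpl39l, Rps4l and Rps25. Brighter probe sets that join Rpl12 or Rps25 to further symbols are counted only in the group of such probe sets. Several probe sets were kept for 20 of the members, and the second-brightest ones are another reading of the same RNA samples. The 46 further probe sets of members were higher in KO in 40 cases in soleus and 38 in TA, with medians of 0.22 and 0.17. The limma fit over all kept probe sets called 0 of these 46 in either muscle, against 0.0109% of all in soleus and 1.68% in TA. Of the 46 brightest probe sets, used in the gene tests, the same fit called 0 in soleus and 1 in TA. The main gene fit had called 2 there. Probe sets of Rpl27a, Rpl41, Rpl7l1 and Rps24 disagreed in sign in both muscles, as did those of Rps27l in soleus and those of Rpl35, Rps18 and Rps9 in TA. For Rpl27a, Rps24 and Rps18 the disagreement rested on 1 probe set near the floor, with a mean log2 of 2.98, 2.89 and 3.17. Of the 48 probe sets used, 33 carry a suffix (_a, 16; _x, 15; _s, 2) by which the maker marks probes that can match further transcripts, so signal from related genes and pseudogenes is uncertain for them.

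Genes with and without the pyrimidine run over the annotated start were set side by side, with no test of a difference. The 11 tested genes with a run of at least 8 had a median of 0.22 in soleus and 0.27 in TA, with 10 and 8 of them higher in KO. The 29 without it had medians of 0.22 and 0.17, with 27 and 24 higher. Genes without a run at the annotated start can have one close by, such as Rpl4 with 14 bases and Rpl11 with 17. A run of at least 8 that reached within 15 bases of the start was found at 21 of 50 member starts (42%). Among all starts the share was 17.6%.

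Genes that act with the ribosome were given from lists of known function. Ribosomal proteins with other symbols were higher as well, with Rpsa at 0.15 in soleus and 0.25 in TA and Fau at 0.14 and 0.15, none of them called. The other mRNAs with a known TOP tract had the highest median of the lists in soleus. Of 17 tested among 20 listed, 17 were higher in KO in soleus and 16 in TA, with medians of 0.30 and 0.20. In this list 3 genes rose in TA, where 185 of all 13008 genes (1.42%) were called higher in KO. The 3 were Npm1 (0.72, limma adjusted p = 0.044), a nucleolar protein of ribosome assembly, and Eif3f (0.60, limma adjusted p = 0.0256) and Eif3h (0.71, limma adjusted p = 0.0489), subunits of an initiation factor. Gas5, a non-coding RNA with a TOP tract, differed by 0.95 and 1.14, and the elongation factor gene Eef2 by 0.52 and 1.11 (TA limma adjusted p = 0.0609), without a call.

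Of 31 tested initiation factor genes, 20 were higher in soleus and 24 in TA (medians 0.09 and 0.19), and Eif3f, Eif3h and Eif3d (0.62, limma adjusted p = 0.0423) rose in TA. Of 8 elongation factor genes, 6 and 7 were higher (medians 0.11 and 0.15) and 0 were called. Among 39 ribosome assembly genes, 27 and 26 were higher (medians 0.12 and 0.19). Those that rose in TA were Npm1, Nob1 (0.89, limma adjusted p = 0.0488), which cuts the precursor of the small subunit rRNA, and Bysl (0.59, limma adjusted p = 0.0449), a small subunit assembly factor. RNA polymerase I, which transcribes rRNA, had medians near 0. Of its 14 genes tested 8 were higher in soleus and 7 in TA (medians 0.03 and -0.02), and Polr1d fell by 0.52 in TA (limma adjusted p = 0.015). Genes of the mTOR pathway and of TOP mRNA binding proteins had 7 and 13 of 25 higher (medians -0.08 and 0.03), with 0 called between genotypes. Chaperones of ribosomal proteins and p53 targets had 8 and 9 of 15 higher (medians 0.00 and 0.07), with 0 called. The lists overlap in members, and Npm1, Eif3f and Eif3h each count in more than 1 of them. Of all genes, 0.0308% were called in soleus and 2.83% in TA, with 1.42% called higher in KO TA. The lists were set beside the medians of all genes, which were 0.00 in both muscles, with no test of a list.

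**Figure D4:**
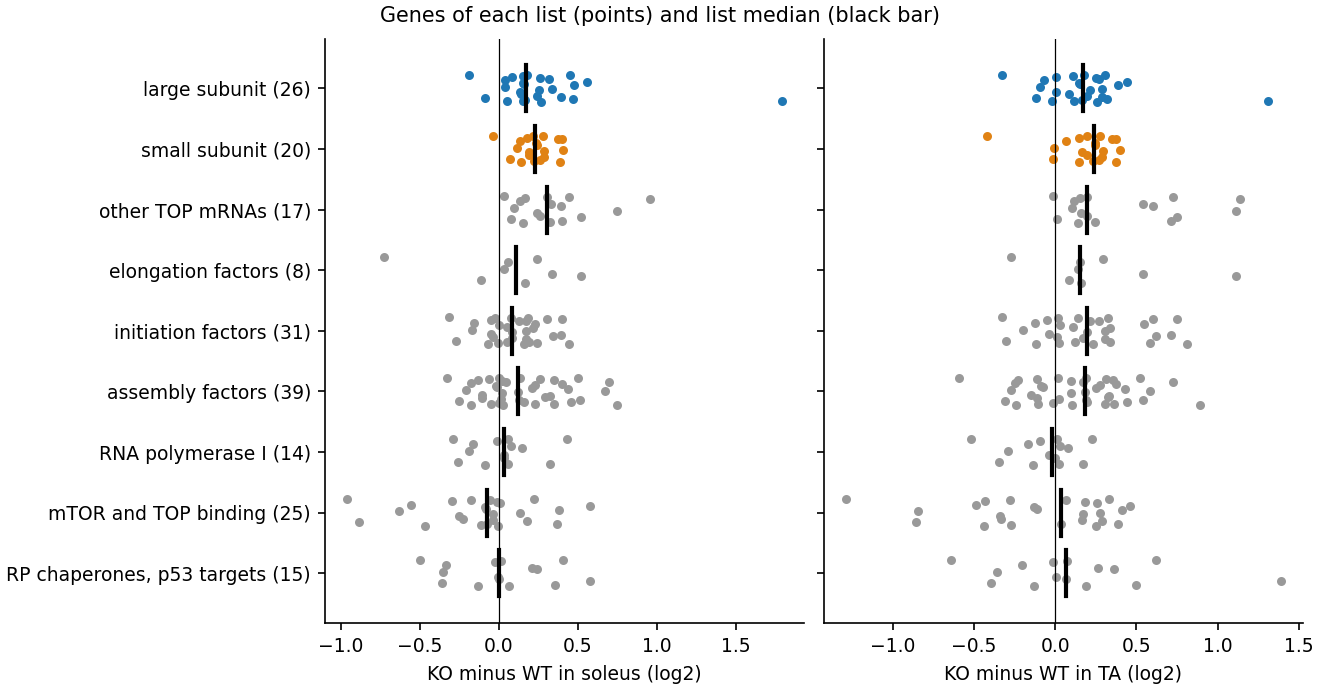
The log2 difference of KO minus WT in soleus (left) and TA (right) for each tested gene of 9 lists (points; counts in brackets), with the list median as a black bar. The medians of both subunits, of the other TOP mRNAs and of the elongation, initiation and assembly factors lie above 0 in both muscles, and those of RNA polymerase I, of the mTOR list and of the chaperones and p53 targets lie between -0.08 and 0.07.

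Markers of other cell types were read in the same arrays, and their part in the ribosomal protein difference was not tested. Of the 10 fibroblast and matrix markers, 6 were higher in KO soleus (median 0.06) and 10 in KO TA (median 0.24), with 0 called. Their summed level spanned log2 16.17 to 16.55 in KO soleus and 15.89 to 16.48 in WT soleus, and 15.88 to 16.50 in KO TA and 15.89 to 16.18 in WT TA, so the genotypes overlapped. Of 8 tested myeloid markers, 8 were higher in KO soleus and 5 in KO TA (medians 0.14 and 0.14), with overlapping sums of 11.30 to 12.26 against 11.27 to 11.76 in soleus and 10.45 to 12.14 against 10.54 to 11.39 in TA. The 10 endothelial markers were all lower in KO soleus (median -0.30) and 9 were higher in KO TA (median 0.15), with 0 called. Their sums overlapped, at 11.70 to 12.18 against 12.06 to 12.40 in soleus and 11.99 to 12.12 against 11.80 to 11.99 in TA. The slow fibre markers had a median difference of -0.02 in soleus and 1.14 in TA, with 9 of 10 higher in KO TA and 0 called, and sums of 18.38 to 18.64 against 18.40 to 18.57 and of 12.86 to 13.57 against 11.97 to 12.91. Of the 3 lymphocyte markers tested among 7, Cd3e and Ms4a1 had means below log2 5, and the antibody chain gene Ighm fell by 3.51 in TA, where its level was 10.75 ± 0.25 in WT and 7.24 ± 0.87 in KO (log2, SD, n = 3), while in soleus its difference was 0.37. The 4 tested adipocyte markers of 6 had medians of 0.29 and 0.29, with sums of 14.33 to 14.97 against 14.05 to 14.90 in soleus and 13.96 to 14.31 against 13.44 to 14.07 in TA. Of the 10 fast fibre markers, 6 were lower in KO soleus and 8 in KO TA (medians -0.05 and -0.13), with 0 called and overlapping sums of 18.42 to 18.67 against 18.62 to 18.76 in soleus and 18.99 to 19.10 against 19.08 to 19.15 in TA. Markers of smooth muscle, satellite cells and Schwann cells had no call between the genotypes. Erythroid markers were near the floor, with 3 of 8 tested and all 3 below log2 5 in every group.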

How the data were processed

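RNA from 12 muscle samples was hybridised to one-colour Affymetrix arrays. The authors deposited 1 table of log2 signals for 45101 probe sets, from 0.89 to 16.36; the submitters' processing notes name MAS5, with no version or role, and the summary method is otherwise not given in the sources used here. Arrays have no read depth, and 3 per group limit the precision. The 2% trimmed means of unlogged signals differed up to 1.11 times between arrays, so values were quantile normalized. A probe set was kept where at least 3 arrays had it above their 40th percentile. Gene symbols came from the platform's probe table, and probe sets with several symbols (932) or none (9160) were left out. The brightest probe set of each gene was tested with limma 3.58.1 in R 4.3.3 (4 group means over 12 arrays, eBayes with a variance trend, 2-sided, Benjamini-Hochberg over 13008 genes, threshold 0.05) in 5 comparisons; scripts were tested on simulated data. The smallest p that an exact permutation test of 3 against 3 arrays allows is 0.1.

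Members and gene lists were chosen with earlier results of these data known. The text names every member called, those with non-overlapping groups or the smallest p, the paralogs, and members chosen after their values were seen as examples of a role or of disagreement.

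For the pairing of equal replicate numbers, deviations from each group's mean were correlated across genes. For numbers 1, 2 and 3 r was 0.35, 0.16 and 0.56 in TA (KO with WT), 0.49, 0.43 and 0.59 in KO (soleus with TA) and 0.35, 0.14 and 0.59 in WT. All exceed 0.1, so the block is given there where it moves a count; KO and WT soleus (0.43, 0.09 and 0.61) do not. The values, and no label, give this pairing. WT TA and KO soleus, which cannot share a mouse, reached 0.28, 0.26 and 0.47.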

Additional observations from a re-analysis of the deposited data

How the results depend on the processing

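The higher median of the ribosomal protein genes in KO kept its sign under all 21 alternatives in each muscle. In soleus it was 0.15 to 0.23, and 0.15 to 0.23 leaving out an array in turn. In TA it was 0.173 to 0.255, and 0.18 to 0.22 leaving out an array in turn. The TA median was 0.255 with arrays centred on their median, 0.173 without the arrays numbered 3 and 0.242 over members above log2 12. Calls depended more on the setting. In soleus array weights gave 5 in place of 0. In TA the main count was 2. Median centring and the replicate block gave 6 each, and a mean above log2 5 and the mean over probe sets 3 each. No filter, probe sets without a suffix and array weights gave 1 each. The groups compared alone and the fit without the arrays numbered 3 gave 0, and leaving out an array in turn 0 to 1. Over all genes the main TA fit called 368, median centring 410, the block 911, no filter 270, no suffix 332 and array weights 515. A mean above log2 5 gave 442 and the mean over probe sets 330. The fit with no filter tested all 18193 genes, where the main one tested 13008. With an array of TA left out the count of all genes was 85 to 398. The groups alone called 4 of all genes, and the fit without the arrays numbered 3 called 56. In WT, soleus against TA gave 1, and 2 as deposited, with a mean above log2 5, with the mean over probe sets and with the replicate block, 6 with array weights, 0 with median centring or the groups alone, and 0 to 1 with an array left out. Over all genes the main WT fit called 1396, array weights 2807, the block 2370, median centring 1390 and the groups alone 707. The deposited values gave 1680, a mean above log2 5 gave 1246 and the mean over probe sets 1279. With an array left out the WT count of all genes was 699 to 1284. In KO, soleus against TA gave 1, and 3 with the replicate block, 2 without the arrays numbered 3 and 1 to 2 with an array left out. Over all genes the main KO fit called 1163, the block 2194 and the fit without the arrays numbered 3 called 1070. With an array left out the KO count of all genes was 585 to 1072. The block changed no other count. Where a fit leaves out arrays, fewer samples remain; otherwise the cause was not tested.

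The gap of large minus small subunit was near 0 and changed sign under some alternatives. In soleus it turned to 0.012 without the arrays numbered 3 and was -0.162 over second-brightest probe sets (left-out arrays -0.055 to -0.010). In TA it was -0.0254 as deposited and when median centred, -0.0269 without the arrays numbered 3, and -0.0204 on probe sets without a suffix (left-out arrays -0.0907 to -0.0184). Between muscles it was -0.0938 in WT and -0.0585 in KO without a suffix, and turned to 0.0270 in WT and was -0.0961 in KO on second-brightest probe sets (left-out arrays -0.0628 to -0.0155 and -0.0507 to 0.0101). For the difference of effects it was 0.0464 without a suffix (left-out arrays -0.0450 to 0.0384). The median soleus minus TA difference was 0.0888 in WT with median centring and -0.0689 on second-brightest probe sets, and in KO -0.0309 above a mean of log2 5, -0.0162 with array weights, -0.0379 above log2 12 and -0.0704 on second-brightest probe sets (left-out arrays -0.0487 to 0.0230 in WT and -0.0308 to 0.0127 in KO). The median difference of effects was 0.0889 with median centring (left-out arrays -0.0468 to 0.0205). Median centring shifted the TA median of all genes to 0.037. Of the members' KO differences, 8 in soleus and 13 in TA changed sign in at least 1 alternative, none of them called. The analyses restricted to bright members and to second-brightest probe sets were chosen after seeing the data.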

Other observations

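Probe sets whose table entry joins several symbols, at least 1 of them of a ribosomal protein, were left out of the gene tests and give a reading of their own. There were 101 of these among the kept probe sets, 87 of them with a mean above log2 8. Of the 101, 94 were higher in KO soleus and 82 in KO TA, with median log2 differences of 0.27 and 0.21, close to the 0.22 and 0.20 of the genes tested. In a limma fit over all kept probe sets, 0 of the 101 were called in soleus and 4 in TA, where 0.0109% and 1.68% of all 27497 were called. They can share transcripts with the tested probe sets and come from the same arrays.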
